A study of Mus musculus with 18 samples.

Results

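The complement genes of the mouse left ventricle were described by RNA sequencing: components, receptors and regulators of the cascade, 32 genes chosen by name out of the 24421 gene rows that all 18 libraries share. Each of 6 groups held 3 libraries. Young wild-type (WT) mice were aged 3 to 4 months, the aged WT group was 24 to 26 months old, and Sesn2-knockout (KO) mice, without the stress-response protein sestrin 2, were 3 to 4 months old, all on the C57BL/6J strain. In each of these 3 kinds of mouse, one group had ischaemia-reperfusion (IR), with the left anterior descending coronary artery closed for 45 minutes and then opened for 24 hours, and the other had sham surgery, in which the chest was opened and no artery was closed. Young mice came from The Jackson Laboratory, aged mice from Charles River and KO mice from the submitters' own colony, so the source of the animals cannot be told apart from age or genotype. No WT littermates of the KO mice were among the groups.

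Complement is a cascade of proteins in blood and tissue fluid that marks targets for uptake and can pierce membranes. The classical route starts when C1q binds and the proteases C1r and C1s are switched on, the lectin route starts when collectins or ficolins bind sugars and act with MASP proteases, and both cut C4 and C2 into a convertase that splits C3. The alternative route amplifies C3 splitting through factor B (Cfb), factor D (Cfd) and properdin (Cfp). C5 (Hc in mouse), C6, C7, C8 and C9 then build the membrane attack complex, while the small fragments C3a and C5a call in leukocytes through the receptors C3ar1 and C5ar1. Inhibitors in fluid and on membranes hold these steps back. The liver makes most of the plasma proteins, while macrophages, fibroblasts and other tissue cells make some of them locally, and complement is known to be deposited in hearts after infarction.

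Values are CPM, the counts of a gene scaled to the total over all gene rows of its library. Libraries held 9404531 to 14458047 counts. Sesn2, the targeted gene, stood at 2.50 to 6.03 CPM in the 12 WT libraries and at 0 to 0.362 CPM in the 6 KO libraries, matching the labels. The 8 cardiomyocyte markers summed to 28802 to 41282 CPM, and heart muscle was thus present in every library. In each group 1 library leaned toward long transcripts (Spearman's rho of its deviation from the group mean with transcript length, 0.34 to 0.51): sample 1 of young sham, 3 of young IR, 1 of aged sham, 3 of aged IR, 3 of KO sham and 3 of KO IR. They were picked as the highest rho of each group, so each group had 1, and other libraries leaned the other way (-0.458 in young sham 2). The 6 picked libraries were the lowest of their group for 12 to 21 of the 29 complement genes tested. Aged sham 3, not picked, was lowest for 13, against 12 for aged sham 1. The same count was not made over all genes tested. Results are also given without the 6 picked libraries. Young sham 3 had a high interferon-response list (6719 CPM summed over 10 genes, the rest of its group had 452 and 579 CPM). Counts come from whole ventricle, so fewer cells of a type and less RNA per cell cannot be told apart.

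Of the 32 genes, 29 passed the filter on low counts and were tested, and 25 of those were above the filter level of 0.779 CPM in every library. Tests were edgeR's quasi-likelihood F tests over 13859 genes, called at a Benjamini-Hochberg adjusted p under 0.05. C6 reached the filter level in all 3 libraries of a group only in the KO groups, and Cfd only in young sham and KO IR. Cd46 reached it in 6 libraries scattered over groups. The tests of C6 and Cfd are limited by this, since groups where they were high helped them pass. C4a, Hc and Cfi held at most 6, 4 and 10 counts in a library and were not tested.

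Of the 29 tested genes, 15 had their lowest group mean in young sham, 8 in young IR and 3 in KO IR. The highest mean was in KO IR for 13, in KO sham for 8 and in young sham for 5. These counts were not made over all genes tested, so they describe the order only. In sham hearts, KO libraries had higher levels of C3, C4b, C6, C7, factor B, properdin, Masp1, C5ar1, Vsig4 and clusterin (Clu) than young WT libraries, which made 10 of the 29 tested genes called higher and 0 called lower. Over all genes tested, 3.32% were called higher, 1.79% lower and 5.11% in either direction. C6 is among the 10 although only the KO groups had all 3 libraries at the filter level for it. DESeq2 called 11 of the 29 there, the additional one being Cfd, lower in KO (7.22% of all genes). After IR, young WT hearts gained C5ar1, Clu and Cfp and lost Cfd, 4 of 29 called, with 3 higher (4.17% of all genes tested were called higher) and 1 lower (1.9% called lower, 6.07% in either direction). The 1 lower gene, Cfd, had all 3 libraries at the filter level only in young sham and KO IR. DESeq2 called 7 of the 29 there (9.04% of all genes), the additional ones being Masp1, Vsig4 and Itgax. Aged WT hearts gained C5ar1, Clu, Cfp and Vsig4, 4 of 29, where 5.36% of all genes tested were called higher and 7.61% in either direction. DESeq2 called 5 of the 29 in aged WT (10.3% of all genes), the additional one being C3ar1. KO hearts had none called after IR, and none of the 13859 genes was called there by edgeR (0%); 3 of the 29 had an unadjusted p under 0.05 (14.7% of all genes tested), and DESeq2 called 0 of the 29 (1.04% of all genes).

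Age was compared within sham and within IR. Aged against young WT hearts had 0 of 29 called in sham (0.152% of all genes tested by edgeR, 0.277% by DESeq2) and 0 of 29 in IR (0.0649% and 0.218%) by either tool. At an unadjusted p under 0.05 there were 7 of 29 in sham (4.44% of all genes tested) and 8 of 29 in IR (3.99%). KO against young WT hearts after IR had 0 called by edgeR (0.433% of all genes tested) and 9 at an unadjusted p under 0.05 (12.7%). DESeq2 called 4 there, namely C4b, Cfb, C6 and C7, among 258 genes called in all (1.75%). For C6, only the KO groups had all 3 libraries at the edgeR filter level. The IR responses themselves were compared too: 0 of 29 were called between aged and young WT (0% of all genes by either tool) and 0 of 29 between KO and young WT (0.0577% by edgeR, 0.22% by DESeq2). At an unadjusted p under 0.05 these were 0 of 29 (1.1% of all genes tested) and 6 of 29 (5.55%). The young sham libraries serve as the control both of the young IR response and of the sham comparisons with aged and KO hearts, so these comparisons are not independent.

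A simpler count asked how often all 3 libraries of a group lay above all 3 of another. KO sham lay above young sham for 19 of 29 tested complement genes, against 14.9% of all genes tested. After IR the KO libraries lay above the young ones for 13 of 29 (8.14% of all genes). Both counts include C6, for which only the KO groups had all 3 libraries at the filter level, so its place in them is not independent. Aged libraries lay above young ones for 5 of 29 in sham (5.71%) and for 7 of 29 after IR (2.44%). In the other direction, KO libraries lay below young ones for 2 of 29 in sham (10.5%) and 0 of 29 after IR (4.6%), and aged below young for 1 in sham (6.57%) and 1 after IR (5.55%). IR libraries lay above sham libraries for 7 of 29 in young WT (12.7%), 4 in aged WT (14.8%) and 4 in KO hearts (12.6%), and below them for 3 (9.63%), 2 (13.8%) and 3 (5.49%). The 5 in sham were C1ra, C4b, C7, C5ar1 and Clu, and the 7 after IR were C1ra, C4b, C3, Cfb, C6, C7 and Vsig4. The median log2 fold change of the 29 was 0.63 for KO against young WT in sham and 0.39 after IR, 0.17 and 0.26 for aged against young WT, and 0.02, 0.12 and -0.02 for IR against sham in young WT, aged WT and KO hearts. Medians over all genes tested lay between -0.03 and 0.02 in these 9 comparisons.

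**Figure D1:**
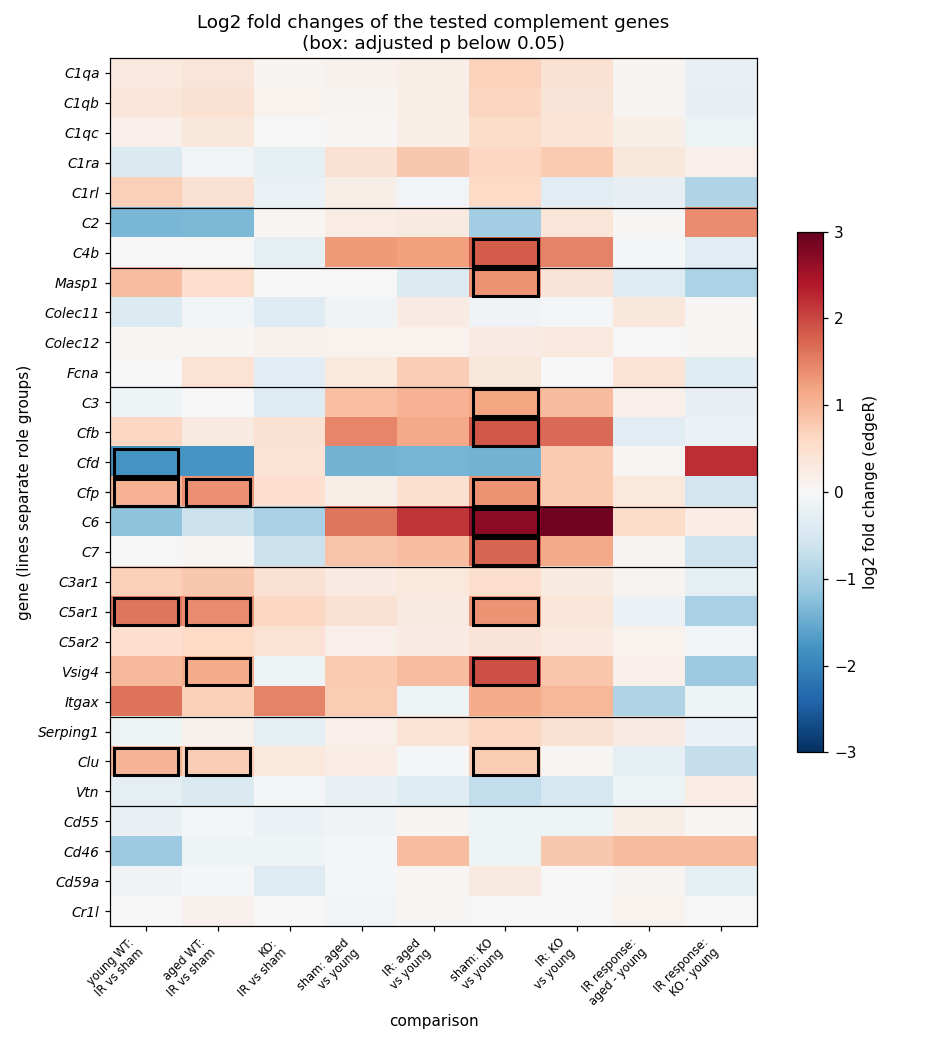
Log2 fold changes by edgeR (colour, blue lower and red higher) of the 29 tested complement genes (rows, grouped by role) in the 9 comparisons (columns), with a box where the adjusted p was under 0.05. The column of KO against young WT in sham holds 10 boxes, and the columns of IR against sham in young and aged WT hold 4 each.

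Promoter sequences are shown for 4 genes called higher in KO than in young WT sham hearts; C5ar1 and Cfp, called as well, also have windows, which are not printed. RefSeq on GRCm38.p6 gave promoter windows for 22 of the 32 genes; C1qa, C2, C4a, C4b, Masp1, Colec12, Cfb, Serping1, Cfi and Clu are not among them. The 250 bases before the start are printed 5′ to 3′ for C3, C6, C7 and Vsig4, with capitals on each match to TTNNGNAA on either strand, the core pattern of C/EBP factors, which are known for acute-phase genes such as C3. C3 starts on the minus strand of chromosome 17 (chr17:57228137-57228386), C6 on the plus strand of chromosome 15 (chr15:4726960-4727209), C7 on the minus strand of chromosome 15 (chr15:5063774-5064023) and Vsig4 on the minus strand of chromosome X (chrX:96293439-96293688).
C3: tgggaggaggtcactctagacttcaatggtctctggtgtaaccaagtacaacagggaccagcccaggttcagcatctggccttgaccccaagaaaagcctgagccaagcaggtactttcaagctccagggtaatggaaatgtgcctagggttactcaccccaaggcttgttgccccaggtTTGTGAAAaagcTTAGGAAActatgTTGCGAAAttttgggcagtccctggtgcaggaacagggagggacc
C6: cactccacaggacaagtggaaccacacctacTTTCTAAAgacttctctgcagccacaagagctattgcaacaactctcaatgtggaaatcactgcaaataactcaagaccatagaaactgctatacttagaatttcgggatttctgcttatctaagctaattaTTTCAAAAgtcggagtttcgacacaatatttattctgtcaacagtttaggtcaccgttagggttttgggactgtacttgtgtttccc
C7: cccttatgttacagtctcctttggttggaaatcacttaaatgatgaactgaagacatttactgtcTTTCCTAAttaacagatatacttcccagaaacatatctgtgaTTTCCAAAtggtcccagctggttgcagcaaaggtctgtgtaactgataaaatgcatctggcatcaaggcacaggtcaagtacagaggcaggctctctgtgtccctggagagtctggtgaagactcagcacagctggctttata
Vsig4: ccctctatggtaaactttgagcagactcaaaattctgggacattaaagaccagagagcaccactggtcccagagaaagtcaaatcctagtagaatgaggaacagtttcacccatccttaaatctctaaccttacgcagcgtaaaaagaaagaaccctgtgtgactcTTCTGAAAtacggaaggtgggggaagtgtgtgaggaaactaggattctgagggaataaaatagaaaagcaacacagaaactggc
The C3 window carries 3 matches between 70 and 45 bases before the start, C6 and C7 carry 2 each, and Vsig4 and C5ar1 carry 1 each. The Cfp window holds no match to this or any other pattern searched. In windows of 300 bases that run 50 bases past the start, at least 1 match was found for 12 of the 22 complement genes (54.5%) and in 40.7% of all 32851 windows, at least 2 in 13.6% and at least 3 in 3.60% of all windows. The interferon-type patterns TTCNNNGAA and GAAANNGAA matched for 4 and 6 of the 22 genes (18.2% and 27.3%, against 8.30% and 8.56% of all windows). A nuclear factor kappa B pattern matched for 1 gene (4.5% of the 22, against 4.51% of all windows). Patterns were searched on both strands and may overlap one another. A match describes the letters only.

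**Figure D2:**
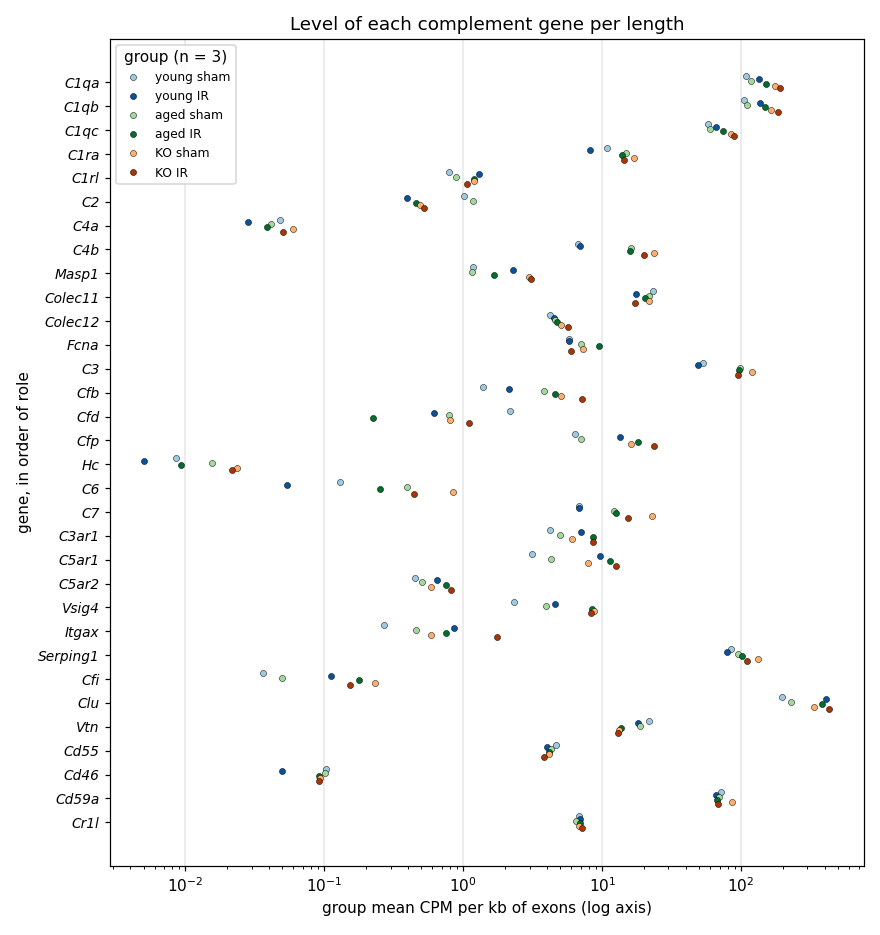
Group mean level of each of the 32 complement genes as CPM per kilobase of exons (log axis), 3 libraries a group, in order of role. Clu, the C1q chains, C3, Serping1 and Cd59a lie at the top, and C4a, Hc, Cd46 and Cfi at the bottom.

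Divided by exon length, the levels spanned more than 4 orders of magnitude. Clu was highest at a mean of 330 CPM per kilobase, followed by C1qa (146), C1qb (142), Serping1 (100.3), C3 (85.3), C1qc (71.8) and Cd59a (71.1). Hc, the gene of C5, was lowest at 0.014 CPM per kilobase. Clu and C3 together made up 45.0 to 66.0% of the summed CPM of the 32 genes, and that sum was 1699 to 2210 CPM in young sham and 3258 to 3409 CPM in KO sham.

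The classical starters had positive values in KO against young WT sham hearts that did not pass the test. C1qa, C1qb and C1qc encode the 3 chains of C1q and lie side by side on chromosome 4 (chr4:136880129-136898803 on GRCm38, C1qb to C1qa), 4.37 megabases from Sesn2. C1qa stood at 77.1, 129 and 131 CPM in young sham, 147, 150 and 122 CPM in young IR, 93.9, 176 and 98.3 CPM in aged sham, 192, 154 and 127 CPM in aged IR, 200.2, 183 and 160 CPM in KO sham, and 222, 185 and 184 CPM in KO IR. Every KO library was above every young WT library, while young and aged libraries overlapped. The log2 fold change of KO against young WT in sham was 0.68 with a standard error (SE) of 0.24, and the adjusted p was 0.119. The 3 chains kept nearly equal counts in every library: C1qb over C1qa was 0.889 to 1.14 and C1qc over C1qa 0.835 to 1.03. C1ra, a C1r protease, was 24.7 to 36.6 CPM in young sham and 40.2 to 57.2 CPM in KO sham, with no overlap, and its adjusted p was 0.177. C1rl, a C1r-like protease, ran from 1.61 to 5.03 CPM over the 18 libraries. None of the 5 starters was called in any of the 9 comparisons.

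Among the genes that form the classical and lectin convertase, C4b stood out. C4b (chr17:34728380-34743882), which encodes C4, was at 24.7, 38.8 and 51.0 CPM in young sham and 53.1, 30.3 and 34.0 CPM in young IR. In aged sham hearts the values were 59.2, 163 and 53.3 CPM and aged IR libraries 115, 95.6 and 59.9 CPM. In KO sham hearts the values were 192, 103 and 111 CPM and KO IR libraries 109, 139 and 93.6 CPM. Each aged and KO library lay above every young WT library of the same surgery, and sham and IR overlapped in all 3 kinds of mouse. KO exceeded young WT in sham by 1.82 on the log2 scale (SE 0.42, adjusted p = 0.0198) and after IR by 1.50 (SE 0.41, adjusted p = 0.142). Aged exceeded young WT by 1.27 (SE 0.41, adjusted p = 0.625) in sham and by 1.23 (SE 0.41, adjusted p = 0.939) after IR. The call was lost without young sham 1, young sham 2 or KO sham 1 (adjusted p up to 0.0929). C4a is a near copy of C4b 65.2 kilobases away with 1 to 6 counts a library, so reads of the pair may be split between them. C2, the protease part of the same convertase, ran the other way in value: 1.61, 6.59 and 3.49 CPM in young sham against 2.64, 1.56 and 1.45 CPM in KO sham, overlapping groups (log2 fold change -1.05, SE 0.48, adjusted p = 0.242). Its IR values were also negative in WT hearts, -1.37 (SE 0.49, adjusted p = 0.114) in young WT with overlapping libraries, and -1.34 (SE 0.48, adjusted p = 0.103) in aged WT. Aged sham libraries held 3.67, 5.63 and 4.30 CPM of C2 and aged IR libraries 2.44, 1.81 and 1.05 CPM, without overlap. C2 and Cfb lie 85 bases apart and share exon sequence with an annotated read-through gene, so their counts are less certain.

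In the lectin arm only Masp1 was called. Masp1 (chr16:23449417-23520815) encodes a protease of the lectin complexes. Its levels were 12.3, 7.85 and 14.5 CPM in young sham, 17.3, 20.6 and 29.5 CPM in young IR, 12.2, 11.3 and 10.6 CPM in aged sham, 12.2, 11.4 and 25.4 CPM in aged IR, 27.0, 24.9 and 36.0 CPM in KO sham and 21.1, 28.8 and 40.3 CPM in KO IR. KO sham libraries lay above all young and aged sham libraries, and young IR above young sham. KO exceeded young WT in sham by 1.34 (log2, SE 0.31, adjusted p = 0.0209). IR against sham in young WT gave 0.93 (SE 0.31, adjusted p = 0.0904 by edgeR and 0.044 by DESeq2). The Masp1 call was lost without young sham 1, young sham 2 or KO sham 3 (adjusted p up to 0.0849). The 3 pattern-recognition lectins were not called: Colec11 (19.0 to 44.6 CPM), the scavenger-type Colec12 (33.6 to 55.6 CPM) and the ficolin Fcna (3.79 to 17.6 CPM) missed the threshold in each comparison.

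C3 and each of the 3 alternative-route genes passed the test in at least 1 comparison. C3 (chr17:57203970-57228136), on which all routes meet, was at 192, 415 and 207 CPM in young sham and 282, 240 and 228 CPM in young IR. The aged sham group held 423, 741 and 344 CPM and aged IR libraries 526, 626 and 346 CPM. The KO sham group held 657, 579 and 620 CPM and KO IR libraries 546, 424 and 502 CPM. All 6 KO libraries were above all 6 young WT libraries, and aged IR libraries were above young IR libraries, while aged sham and young sham overlapped through young sham 2. C3 was higher in KO than in young WT by 1.19 (log2, SE 0.31, adjusted p = 0.0365) in sham and by 0.94 (SE 0.31, adjusted p = 0.220) after IR, and IR against sham gave -0.14 (SE 0.30) in young WT. The KO call in sham was lost without young sham 1, young sham 3 or any 1 KO sham library (adjusted p up to 0.149). It was also lost with the compared groups alone in the fit and without the 6 long-transcript libraries (up to 0.280). The aged against young values were 0.90 (SE 0.31, adjusted p = 0.690) in sham and 1.04 (SE 0.31, adjusted p = 0.644) after IR.

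Cfb (chr17:34856374-34862518), the protease of the alternative convertase, was called in KO sham. Young sham libraries held 2.67, 3.85 and 5.19 CPM and young IR libraries 6.66, 5.64 and 5.91 CPM. Among aged hearts, sham libraries held 8.23, 19.0 and 4.86 CPM and aged IR libraries 18.4, 11.9 and 8.55 CPM. Among KO hearts, sham libraries held 24.3, 10.2 and 8.47 CPM and KO IR libraries 19.5, 25.4 and 15.8 CPM. Every KO library exceeded every young WT library, and KO sham 1 was far above the other KO sham libraries. The differences were 1.87 (log2, SE 0.48, adjusted p = 0.0347) in sham and 1.70 (SE 0.46, adjusted p = 0.135) after IR. The call in sham was lost without any 1 young sham library or without KO sham 1 (adjusted p up to 0.174). It was also lost with no filter, with the compared groups alone in the fit and without the 6 long-transcript libraries.

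Cfp (chrX:20925454-20931555) encodes properdin, which stabilises the alternative convertase and is made by neutrophils and monocytes. It was at 8.00, 12.2 and 12.98 CPM in young sham and 13.6, 32.5 and 23.7 CPM in young IR. Aged sham libraries held 10.3, 17.0 and 9.54 CPM and aged IR libraries 42.4, 25.7 and 26.4 CPM. KO sham libraries held 29.2, 29.4 and 25.5 CPM and KO IR libraries 40.4, 50.2 and 32.7 CPM. IR libraries lay above sham libraries in each kind of mouse, and KO sham lay in the range of the WT IR libraries. Cfp rose with IR by 1.05 (log2, SE 0.30, adjusted p = 0.0485) in young WT and by 1.36 (SE 0.30, adjusted p = 0.0125) in aged WT. The KO difference from young WT in sham was 1.34 (SE 0.30, adjusted p = 0.0165). In KO hearts IR against sham gave 0.50 (SE 0.28, adjusted p = 0.430). The young call was lost without any 1 library except young IR 1 (adjusted p up to 0.233), the aged call without aged sham 1, aged sham 3 or aged IR 1 (up to 0.0850), and the KO call without young sham 1 (0.0809). The young call held in only 3 of 12 alternatives. Other size factors, no filter, the compared groups alone and no long-transcript libraries each lost it too (adjusted p up to 0.438).

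Cfd (chr10:79890853-79892655), the adipocyte-rich protease adipsin that cuts factor B, was scarce and was called lower with IR in young WT. Only young sham and KO IR had all 3 libraries at the filter level for Cfd. Young sham, where it was high, thus helped it pass the filter, which limits this call. It held 1.26, 2.35 and 2.35 CPM in young sham and 0.999, 0.232 and 0.477 CPM in young IR. In aged sham hearts the values were 0.761, 0.593 and 0.841 CPM and aged IR libraries 0.228, 0.213 and 0.174 CPM. In KO sham hearts the values were 1.03, 0.744 and 0.434 CPM and KO IR libraries 1.01, 1.00 and 1.04 CPM. Both WT ages had lower values after IR without overlap, and KO hearts did not. Cfd fell by 1.80 with IR in young WT (log2, SE 0.43, adjusted p = 0.0204); in aged WT the value was -1.76 (SE 0.56, adjusted p = 0.0646), and KO against young WT in sham gave -1.43 (SE 0.40, adjusted p = 0.0509 by edgeR and 0.0464 by DESeq2). The gene had 2 to 30 counts a library, and its call was lost without young sham 2 or 3 or young IR 2 or 3 (adjusted p up to 0.0955). The call was also lost with the compared groups alone in the fit. The 6 adipocyte markers moved with it in WT hearts, summing to 2.59 to 5.44 CPM in young sham, 0.095 to 1.58 CPM in young IR, 1.18 to 2.34 CPM in aged sham and 0.436 to 0.638 CPM in aged IR. In KO hearts they summed to 1.49 to 2.13 CPM in sham and 0.584 to 2.13 CPM in IR, which overlap. Each of the 6 was at 0 in at least 1 library, 1 of the 6 was tested, and their part in the Cfd result was not tested.

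Of the 3 terminal genes among the 32, C6 and C7 were tested and were called higher in KO than in young WT sham hearts, and C5 was nearly undetected. For C6, only the KO groups, where it was high, had all 3 libraries at the filter level, so its call is not independent support. C7 (chr15:4988762-5063740), which anchors the attack complex to a membrane, was at 19.8, 18.2 and 16.6 CPM in young sham and 19.0, 16.8 and 18.6 CPM in young IR. The aged sham group held 29.2, 42.9 and 26.1 CPM and aged IR libraries 28.7, 46.0 and 26.0 CPM. The KO sham group held 56.3, 50.8 and 75.5 CPM and KO IR libraries 40.1, 31.7 and 50.5 CPM. All 6 young libraries lay below all aged and all KO libraries, and KO sham lay above aged sham. C7 was higher in KO than in young WT by 1.75 (log2, SE 0.25, adjusted p = 0.000769) in sham and by 1.13 (SE 0.24, adjusted p = 0.0569; DESeq2 0.0033) after IR. Aged against young WT gave 0.86 (SE 0.24, adjusted p = 0.439) in sham and 0.93 (SE 0.25, adjusted p = 0.404) after IR. IR against sham gave -0.02 (SE 0.25) in young WT and 0.05 (SE 0.24) in aged WT; in KO hearts IR libraries lay below sham libraries (-0.64, SE 0.24, adjusted p = 0.243). The KO call in sham held without each single library and without the 6 long-transcript libraries (1.58, adjusted p = 0.0425).

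C6 (chr15:4727175-4814967), the neighbour of C7 at a distance of 173.8 kilobases and the subunit before it in the complex, was far scarcer. Young sham libraries held 0.421, 0.549 and 0.406 CPM and young IR libraries 0.416, 0.155 and 0 CPM. Among aged hearts, sham libraries held 0.207, 3.41 and 0.561 CPM and aged IR libraries 0.990, 1.17 and 0.524 CPM. Among KO hearts, sham libraries held 2.93, 3.27 and 2.75 CPM and KO IR libraries 1.32, 1.92 and 1.48 CPM. All 6 KO libraries lay above all 6 young libraries, and aged sham 2 alone reached the KO level. The C6 difference of KO from young WT was 2.68 (log2, SE 0.71, adjusted p = 0.0407) in sham and 2.90 (SE 0.87, adjusted p = 0.183) after IR. The gene had 0 to 46 counts a library, and its call was lost without any 1 of the 6 sham libraries compared, with adjusted p of 0.0726 to 0.138. Hc had 20 counts over all 18 libraries together.

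Of the receptors for the split products, C5ar1 rose with IR in both WT ages. C5ar1 (chr7:16246743-16259540), the main C5a receptor of neutrophils and macrophages, was at 8.07, 8.55 and 7.47 CPM in young sham and 14.2, 29.1 and 31.4 CPM in young IR. Aged sham libraries held 9.13, 14.2 and 9.63 CPM and aged IR libraries 36.2, 20.9 and 30.6 CPM. KO sham libraries held 17.0, 20.1 and 23.8 CPM and KO IR libraries 29.3, 35.6 and 32.6 CPM. The groups did not overlap between sham and IR in any of the 3 kinds of mouse, and KO sham lay above both WT sham groups. IR raised C5ar1 by 1.60 (log2, SE 0.26, adjusted p = 0.0023) in young WT and by 1.42 (SE 0.25, adjusted p = 0.00421) in aged WT. KO exceeded young WT in sham by 1.34 (SE 0.26, adjusted p = 0.00725) and after IR gave 0.36 (SE 0.24, adjusted p = 0.563). The IR value in KO hearts was 0.62 (SE 0.24, adjusted p = 0.259), and the difference of the KO from the young response, -0.98 (SE 0.35), had an adjusted p of 0.743.

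Vsig4 (chrX:96247203-96293438), a receptor of resident macrophages for C3b and its fragments, was called in KO sham under all 12 alternatives, as C7 was. It was at 2.24, 5.49 and 2.52 CPM in young sham and 7.41, 6.88 and 5.91 CPM in young IR. In aged sham hearts the values were 6.50, 6.30 and 4.67 CPM and aged IR libraries 15.9, 13.8 and 7.77 CPM. In KO sham hearts the values were 14.0, 14.1 and 10.8 CPM and KO IR libraries 15.2, 11.2 and 10.5 CPM. KO sham lay above all young and aged sham libraries, and IR lay above sham in both WT ages but not in KO hearts. KO against young WT in sham was 1.92 (log2, SE 0.31, adjusted p = 0.00239) and 1.77 without the 6 long-transcript libraries (adjusted p = 0.0419). Vsig4 rose with IR in aged WT by 1.11 (SE 0.30, adjusted p = 0.0353), losing the call without any 1 library except aged IR 3 (adjusted p up to 0.180), and in young WT the value was 0.96 (SE 0.32, adjusted p = 0.0878 by edgeR and 0.0452 by DESeq2). The aged call was also lost with the compared groups alone in the fit. After IR, KO against young WT gave 0.83 (SE 0.30, adjusted p = 0.266).

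Other receptors had positive values in WT after IR without passing the edgeR test. DESeq2 called Itgax in young WT (1.61, adjusted p = 0.0338) and C3ar1 in aged WT (0.79, adjusted p = 0.0379). C3ar1, the C3a receptor, was 14.6 to 21.5 CPM in young sham and 20.6 to 35.6 CPM in young IR, overlapping by 1 library (0.72, SE 0.26, adjusted p = 0.117). C5ar2, the second C5a receptor and the neighbour of C5ar1, ran from 1.18 to 3.42 CPM. Itgax, the CD11c chain of complement receptor 4, was at 1.19, 1.33 and 1.38 CPM in young sham, 1.08, 5.56 and 5.72 CPM in young IR, 1.59, 3.85 and 1.12 CPM in aged sham, 3.73, 2.13 and 4.89 CPM in aged IR, 1.91, 2.90 and 3.69 CPM in KO sham and 5.98, 10.5 and 8.52 CPM in KO IR. Sham and IR overlapped in both WT ages and stood apart in KO hearts. Itgax was one of 3 genes with an unadjusted p under 0.05 for IR in KO hearts, beside C5ar1 and C7 (1.50, SE 0.49, adjusted p = 0.214).

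**Figure D3:**
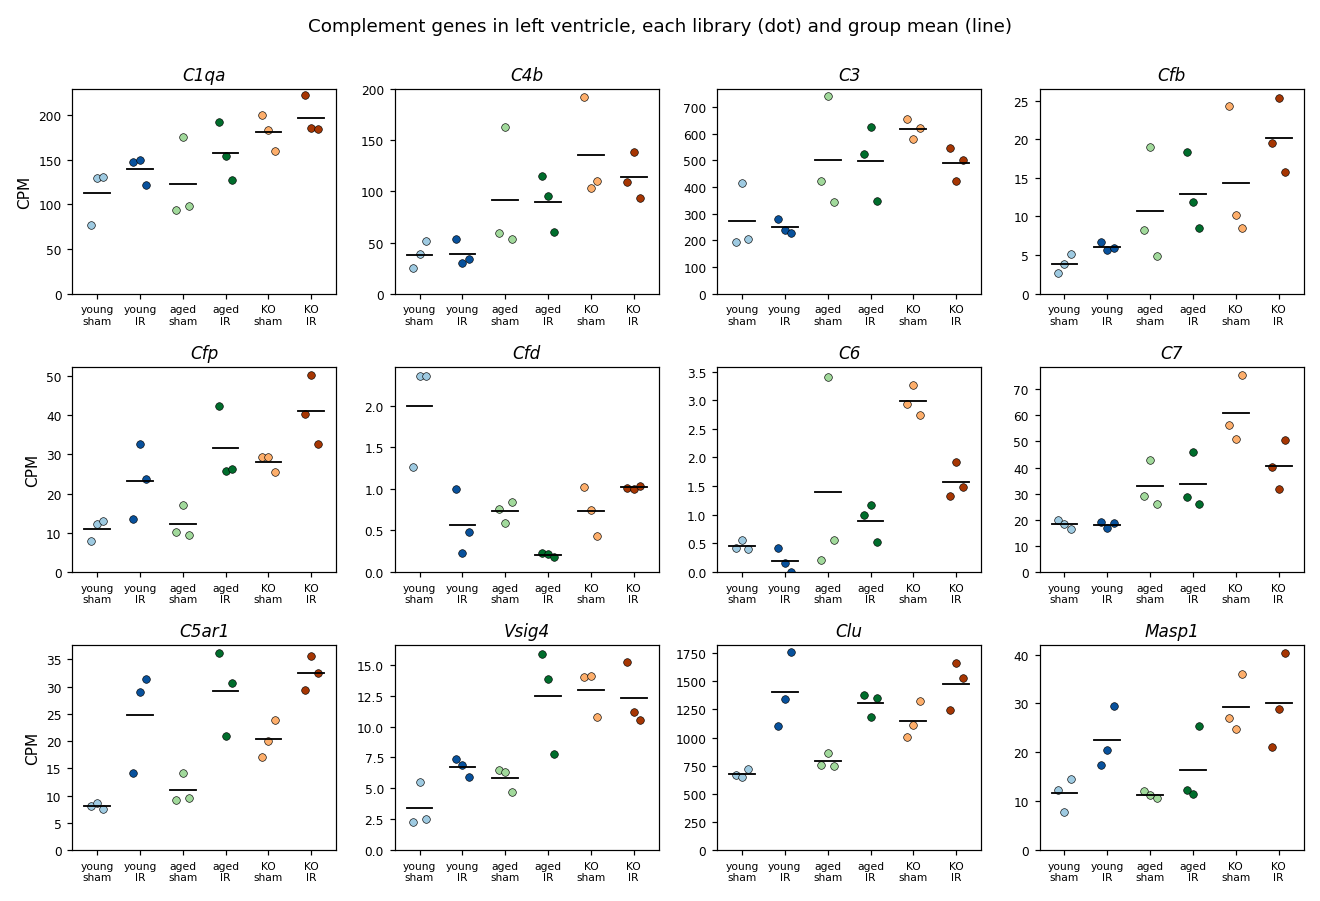
CPM of 12 complement genes in each library (dots) and the group mean (line), with 6 groups on the horizontal axis and each panel on its own linear axis from 0. C3, C4b, C6 and C7 overlap between sham and IR in young hearts, these 4 and Cfb lie higher in KO than in young hearts, and C5ar1, Cfp and Clu step up between sham and IR in WT hearts.

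Clu (chr14:65968483-65981547), clusterin, a secreted chaperone that blocks the attack complex, was the most abundant complement RNA. It was at 665, 645 and 720.5 CPM in young sham and 1099.7, 1348 and 1765 CPM in young IR. The aged sham group held 759, 862 and 747 CPM and aged IR libraries 1379, 1185 and 1349.7 CPM. The KO sham group held 1002, 1114 and 1326 CPM and KO IR libraries 1243, 1666 and 1531 CPM. Sham and IR did not overlap in either WT age, and KO sham lay above all 6 WT sham libraries. Clu rose with IR by 1.03 (log2, SE 0.16, adjusted p = 0.00172) in young WT and by 0.74 (SE 0.16, adjusted p = 0.0123) in aged WT, and KO exceeded young WT in sham by 0.76 (SE 0.16, adjusted p = 0.012). The aged call was lost without aged sham 1, aged sham 3 or aged IR 1 (adjusted p up to 0.0719) and the KO call without young sham 1 or KO sham 3 (up to 0.0508). In KO hearts IR gave 0.31 (SE 0.16, adjusted p = 0.376), and the KO minus young difference of responses was -0.72 (SE 0.22, adjusted p = 0.606).

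The other inhibitors were not called. Serping1, the C1 inhibitor, was 153 to 231 CPM in young sham and 265 to 343 CPM in KO sham without overlap (0.63, SE 0.25, adjusted p = 0.179). Vtn, vitronectin, which keeps the attack complex soluble, was 42.3 to 46.2 CPM in young sham and 19.0 to 32.6 CPM in KO sham (-0.73, SE 0.30, adjusted p = 0.186), with all KO sham libraries below all young ones. Cfi, the protease that cuts C3b and C4b, had 62 counts over all libraries. On membranes, Cd55 (14.9 to 26.3 CPM) speeds decay of the convertases, Cd59a (92.6 to 160 CPM) blocks C9, Cr1l (64.5 to 80.0 CPM) is the mouse cofactor Crry, and Cd46 (0.25 to 1.32 CPM) is a cofactor found mainly on sperm in mice. None of these 4 was called in any comparison. Cd46, Cd55 and Fcna share exon bases with genes on the opposite strand, and the strand setting of the counting is not given in the sources used here.

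Other genes of the pathway were read from a list of 38 symbols, 34 of which were in the files and 12 of which were tested. C1s1, which encodes the protease C1s, was called in no comparison. C8a, C8b, C9 and the mannose-binding lectins Mbl1 and Mbl2 had at most 2 counts in a library. C8g, the gamma chain of C8 in the attack complex, was tested and not called. It held 2.52, 3.30 and 3.08 CPM in young sham, 1.47, 2.38 and 1.37 CPM in KO sham, 3.75, 2.40 and 2.00 CPM in young IR and 1.72, 0.584 and 0.815 CPM in KO IR. All KO libraries were below all young WT libraries of the same surgery, with log2 values of -0.77 (SE 0.37, adjusted p = 0.276) in sham and -1.45 (SE 0.41, adjusted p = 0.147) after IR, opposite in direction to C6 and C7. After IR in young WT, 3 of the 12 were called higher (4.17% of all genes tested): Itgam (1.71, SE 0.33) and Itgb2 (1.40, SE 0.31), the chains of complement receptor 3, and the pentraxin Ptx3 (4.37, SE 0.42), which binds C1q. In aged WT, Itgam, Calr and Ptx3 were called higher, 3 of 12 (5.36% of all genes tested). KO against young WT in sham had Itgam (1.18, SE 0.32), Calr (0.71, SE 0.19) and Ptx3 (3.62, SE 0.43) called higher and Cd93 (-0.61, SE 0.13) called lower, 3 and 1 of 12, where 3.32% and 1.79% of all genes tested were called higher and lower. Ptx3 was at 0.561, 0.785 and 0.568 CPM in young sham, 8.41, 15.5 and 17.1 CPM in young IR, 3.96, 9.15 and 10.6 CPM in KO sham and 18.3, 12.4 and 20.1 CPM in KO IR. It was already high in KO sham, and its IR response was smaller in KO than in young WT by a tested difference of -3.33 (log2, SE 0.54, adjusted p = 0.0242). After IR, KO against young WT gave 0.28 for Ptx3 (SE 0.31, adjusted p = 0.747). Young sham 1 and 3 were under the filter level of 0.779 CPM for it. Groups where Ptx3 was high thus helped it pass the filter, which limits its calls.

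Of the leukocyte lists, those of neutrophils, resident macrophages and recruited monocytes moved with these results. The summed B cell and dendritic cell lists did not. B cell markers summed to 5.19 to 6.52 CPM in young sham, 2.33 to 4.01 CPM in young IR and 2.75 to 6.15 CPM in KO sham. Dendritic cell markers summed to 10.5 to 13.7 CPM, 10.7 to 13.8 CPM and 11.7 to 14.8 CPM in the same groups. Zbtb46 alone made up most of the dendritic sum (mean 8.77 CPM over all libraries). In KO against young WT sham, 1 of the 5 dendritic genes was called higher (3.32% of all genes tested). Their median log2 fold change there was 1.15, so the sum does not describe the scarcer dendritic genes. The 10 neutrophil markers summed to 6.45 to 8.55 CPM in young sham, 66.4 to 139 CPM in young IR, 7.75 to 22.2 CPM in aged sham, 106 to 189 CPM in aged IR, 41.6 to 93.9 CPM in KO sham and 103 to 184 CPM in KO IR. Of the 9 tested, 9 were called higher with IR in young and in aged WT and 8 in KO against young WT sham, and the granule gene Ngp stayed at 0 to 2 counts. Over all genes tested, 4.17%, 5.36% and 3.32% were called higher in these 3 comparisons. Cxcr2, Il1r2 and Trem1 fell to 0 counts in at least 1 library. Groups where such scarce markers were high helped them pass the filter, which limits these calls. The 12 resident macrophage markers summed to 362 to 496 CPM in young sham and 649 to 686 CPM in KO sham, with 4 of 12 called higher there, and 4 and 2 of 12 called higher with IR in young and aged WT. The 7 recruited monocyte markers summed to 250.4 to 422 CPM in young sham and 505 to 561 CPM in KO sham, with 3 of 7 called, and 3 and 5 of 7 were called higher with IR in young and aged WT. Their sums overlapped between sham and IR in both WT ages. They were 390 to 620 CPM in young IR, 334 to 532 CPM in aged sham and 478 to 843 CPM in aged IR. Lyz2 made up most of the monocyte sum (mean 428 CPM over all libraries). Fibroblast markers were called for 0 of 10 in KO against young WT sham (3507 to 4766 CPM in young sham and 4511 to 5344 CPM in KO sham) and called higher for 4 and 3 of 10 with IR in young and aged WT. Cardiomyocyte markers, with 0 of 8 called in KO against young WT sham, summed to 40655 to 41282 CPM in young sham and 33289 to 34148 CPM in KO sham, and 5 hepatocyte markers summed to at most 2.86 CPM in any library with Serpina1a at 0 throughout. The neutrophil list was 7.75 to 22.2 CPM in aged sham, where C4b and C7 were above young sham without overlap. Aged sham 2, the library at 22.2 CPM, also held the highest C4b (163 CPM) and C7 values of its group. The part of these cells in the complement results was not tested.

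**Figure D4:**
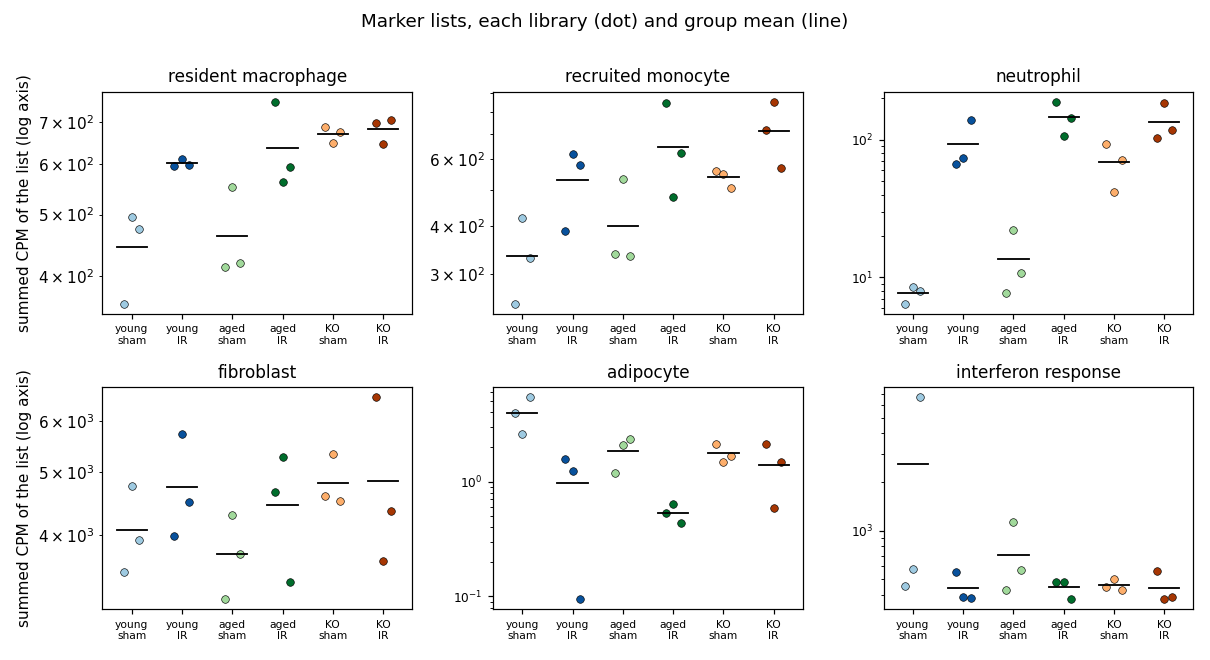
Summed CPM (log axes) of 6 marker lists in each library (dots) with the group mean (line), over the 6 groups. Neutrophil markers are lowest in young sham (6.45 to 8.55 CPM) and aged sham, KO sham (41.6 to 93.9 CPM) overlaps young IR (66.4 to 139 CPM), and 1 young sham library stands apart in the interferon list.

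Without the 6 long-transcript libraries, which leaves 2 a group, the called complement genes numbered 0 for IR in young WT, 0 for IR in aged WT and 2 for KO against young WT in sham, C7 and Vsig4, while calls over all genes went from 841 to 16, from 1054 to 106 and from 708 to 144. The log2 fold changes then were 1.37 for C5ar1, 0.79 for Clu, 0.82 for Cfp and -1.97 for Cfd in young WT, and 1.24, 0.66, 1.33 and 1.42 for C5ar1, Clu, Cfp and Vsig4 in aged WT. For KO against young WT in sham they were 0.95 for C3, 1.67 for C4b, 1.89 for Cfb, 1.18 for Cfp, 1.17 for Masp1, 2.63 for C6, 1.17 for C5ar1 and 0.59 for Clu. Every one of these kept its direction.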

How the data were processed

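RNA of 18 left ventricles was sequenced as stranded, paired-end mRNA libraries, per the labels' protocols. For each sample the authors deposited gene symbols with raw whole-number counts, unnormalized. The submitters' processing notes name FastQC, Bowtie2, TopHat2, HTSeq, SAMtools and mm10; for versions, settings, strand option and annotation the sources used here give nothing. Rows for reads in no gene (6.12 to 9.06% of counts) and in several genes (0.63 to 0.76%) were left out.

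CPM used the raw total of gene rows. Tests used edgeR 4.0.16 in R 4.3.3: filterByExpr (13859 of 24421 genes), TMM scaling, 1 robust quasi-likelihood model with 6 group means over 18 libraries, and Benjamini-Hochberg adjustment within each comparison at 0.05. A standard error is the log2 fold change over the root of F. Positions and exon lengths came from GENCODE M21 (GRCm38), where 95.5% of symbols matched once. The script was tested on simulated data. Alternatives were DESeq2 1.42.0, other size factors, no filter, the compared groups alone, a replicate block, no long-transcript libraries, and each library left out.

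The 32 genes, the role groups and the marker lists were chosen with earlier results of these data known. Genes were named in full where called in the most comparisons of their role group, up to 4 a group; C1qa, C2, Itgax and the values of uncalled genes were added after their values were seen, to show each group. Nothing ties samples to litters or days, so p-values reflect only the spread among samples, which may be technical. Replicate pairs all differed by more than sampling noise (chi-square over degrees of freedom from 8.9 to 50.85). Libraries held 9404531 to 14458047 counts, which limits genes of few counts. Of the other marker lists, dendritic, B cell, mesothelial and endothelial markers had 1, 0, 0 and 0 called higher and 0, 0, 1 and 1 called lower in KO against young WT sham. One gene of the list of other pathway genes is not reported here.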

Additional observations from a re-analysis of the deposited data

Results flagged for a closer look

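Cfd values of KO and young WT hearts were ordered oppositely in sham and in IR, and this difference was not called. All 3 KO sham libraries lay below all 3 young sham libraries, and all 3 KO IR libraries lay above all 3 young IR libraries, the closest of them at 1.00 and 0.999 CPM. In KO hearts alone IR against sham gave 0.42 (adjusted p = 0.696), with overlapping libraries. The IR response of KO minus that of young WT was 2.22 (log2, SE 0.61), and its test did not pass (adjusted p = 0.515, edgeR). The gene had 2 to 30 counts a library.

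Ptx3, a pentraxin outside the 32 genes, differed in its IR response between KO and young WT by -3.33 (log2, SE 0.54, adjusted p = 0.0242, edgeR). The response was 4.37 (SE 0.42) in young WT and 1.04 (SE 0.32, adjusted p = 0.202) in KO hearts, and KO sham was above young sham by 3.62 (SE 0.43). Young sham libraries held only 7 to 10 counts of Ptx3. Groups where it was high helped it pass the filter, which limits this result.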

How the results depend on the processing

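Counts of called complement genes changed by more than 1.5 times in these cases. IR in young WT went from 4 (841 genes called over all) to 2 (169) with the compared groups alone in the fit, to 0 (16) without the 6 long-transcript libraries and to 7 (1302) with DESeq2, and ran from 2 to 7 (270 to 1465) when each library was left out. IR in aged WT went from 4 (1054) to 0 (106) without the long-transcript libraries and ran from 1 to 4 (232 to 1070) when each library was left out. KO against young WT in sham went from 10 (708) to 2 (144) without the long-transcript libraries and ran from 4 to 8 (296 to 462) when each library was left out. KO against young WT after IR went from 0 (60) to 4 (258) with DESeq2. With the replicate block the counts were 6 (879), 4 (1236) and 0 (0) for IR in young WT, aged WT and KO. They were 0 (20) and 0 (11) for aged against young WT in sham and IR. KO against young WT had 10 (755) in sham and 0 (68) after IR. The differences of responses had 0 (0) for aged minus young WT and 0 (6) for KO minus young WT. Same-numbered samples correlated over 0.1 in 19 of 45 pairs (-0.47 to 0.8) and best with each other in 14. These included sample 3 of young IR, aged IR, KO sham and KO IR, each with the others (0.42 to 0.80). Sample 1 of young sham and of aged sham also correlated (0.575). Those are the 6 long-transcript libraries, so these samples share that lean, and the labels do not say what else a number stands for. Among single genes called, 148 values kept their call under an alternative and 68 lost it, none changed direction. C7 and Vsig4 in KO against young WT sham kept it under all 12 alternatives; C5ar1 in its 3 comparisons and Clu in young WT IR lost it only without the long-transcript libraries, where fewer samples were tested. Genes under 50 counts a library, such as C6 and Cfd, are limited by depth.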
